A study of Mus musculus with 11 samples.

Results

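The acid-secreting machinery of the stomach was followed through 6 transcripts: Atp4a and Atp4b, which encode the catalytic and glycoprotein subunits of the gastric proton pump, and Kcnq1, Kcne2, Kcnj15 and Kcnj16, which encode potassium channel subunits. The 6 genes were taken by symbol from the 22180 genes with a probe set naming a single gene on an Affymetrix expression array, and each had 1 such probe set. Total RNA came from adult C57Bl/6 mice. Whole stomach was measured on 2 arrays after rapamycin and tamoxifen together, 2 after tamoxifen, 3 after rapamycin and 2 after the sunflower oil vehicle. Tamoxifen was dosed at 5 mg per 20 g of body weight over 3 days and rapamycin at 0.6 mg per 20 g over 10 days, and each agent was injected once a day into the peritoneum. Another array held isolated parietal cells, and 1 more held the stomach cells that remained once parietal cells had been removed, with no treatment given in the labels for either. The labels describe the whole-stomach samples as biological replicates, and do not say whether an array stands for 1 mouse or a pool.

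Parietal cells secrete hydrochloric acid through the proton pump, a P-type ATPase that exports protons in exchange for luminal potassium. The exchange stops without potassium in the lumen, so potassium that enters with each pump cycle has to leave again through channels of the apical membrane. KCNQ1 with its accessory subunit KCNE2 forms such a channel, and mice that lack either gene fail to acidify the stomach. The inward rectifiers Kir4.2 and Kir5.1, encoded by Kcnj15 and Kcnj16, also occur in parietal cells, and Kir5.1 works mainly as a partner in mixed channels with Kir4.1 or Kir4.2. Tamoxifen, a ligand of oestrogen receptors, is known to injure parietal cells of mice at high dose, and rapamycin inhibits the growth kinase complex mTORC1.

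Values were deposited as log2 expression made with robust multi-array averaging (RMA). Array medians lay between 4.95 and 5.09 in whole stomach and at 3.67 in parietal cells and 3.68 in the other cells, so the fractions were compared only with each other. Epithelium of the squamous forestomach was unevenly represented. The mean of 10 squamous keratinocyte markers was 8.77 and 8.95 after rapamycin plus tamoxifen, 9.26 and 4.23 after tamoxifen, 9.48, 8.10 and 4.79 after rapamycin and 4.61 and 4.16 after vehicle. Markers of glandular epithelium such as Epcam and Cldn18 averaged 11.32 and 11.15 after rapamycin plus tamoxifen, 11.25 and 11.70 after tamoxifen, 11.00, 10.94 and 11.01 after rapamycin and 11.03 and 11.42 after vehicle. In bulk tissue, fewer parietal cells and less of a transcript per parietal cell cannot be told apart.

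The separated cells ask where in the stomach the 6 transcripts reside. Isolated parietal cells had the higher level of all 6, by a median of 3.55 log2 units against 0.03 over all genes. All 6 passed a difference of 2 log2 units, which 1.30% of all genes did, and 6.32% of all genes passed 1 unit. With 1 array per fraction there was no replicate check and no test.

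The proton pump subunits read 12.58 in parietal cells and 8.03 in the other cells for Atp4a, a 23.4-fold difference. Atp4b read 12.60 in parietal cells and 8.74 in the other cells, which is 14.5-fold. Kcne2 stood at 9.16 in parietal cells and 4.56 in the other cells (24.3-fold), so this accessory subunit and the catalytic pump subunit held ranks 23 and 24 of all 22180 genes by their difference. Its channel partner Kcnq1 differed by less, with 7.86 in parietal cells and 5.74 in the other cells (4.33-fold, rank 254). Kcnj15 stood at 8.60 in parietal cells and 6.53 in the other cells (4.20-fold, rank 268). Kcnj16 stood at 8.84 in parietal cells and 5.61 in the other cells (9.39-fold, rank 86). Kcnq1 and Kcnj15 were therefore closest to the bound of 2 log2 units, at 2.11 and 2.07.

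**Figure D1:**
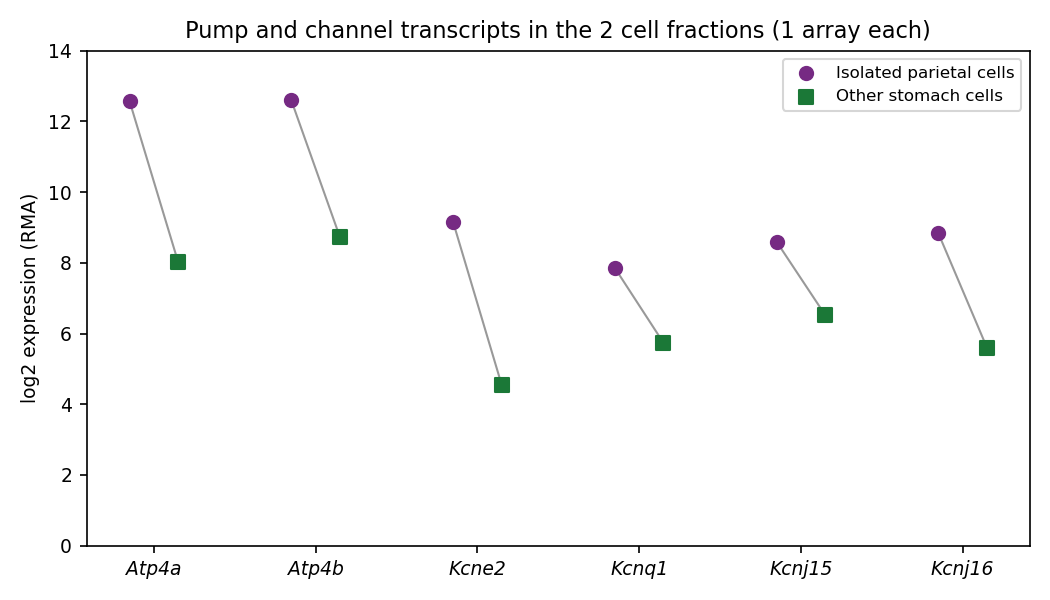
RMA log2 expression (y axis) of each of the 6 genes (x axis) on the single array of isolated parietal cells (circles) and the single array of other stomach cells (squares). Every gene is higher in parietal cells, by 4.60 log2 units for Kcne2 at most and 2.07 for Kcnj15 at least. Heights of different genes rest on different probes and are not comparable.

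Most other parietal-cell markers moved with the 6 genes between the fractions. Of 12 markers that are not among the 6 genes, including the anion exchanger gene Slc4a2 and the histamine receptor gene Hrh2, 7 exceeded the other cells by 2 log2 units or more and 10 were higher in parietal cells (median 3.14). Car2 (-0.23) and Slc9a4 (-1.30) were lower in parietal cells. All 7 endocrine markers were at least 2 log2 units lower there (median -5.74). Neck mucous markers (3 of 4) and chief cell markers (3 of 6) also stood at least 2 units lower. Of pit mucous markers 1 of 4 did (median -1.51), and Gkn1 read 11.73 in parietal cells and 13.10 in the other cells. The other cells still read 8.03 for Atp4a and 8.74 for Atp4b, against an array median of 3.68. How pure the fractions were was not tested.

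Tamoxifen was given to mice with and without rapamycin, and both pairs of groups ask what it does to the pump and its channels. All 6 transcripts fell when its effect was averaged over the 2 settings. Kcnj16 dropped to 19.8% of its level without tamoxifen and the other 5 to between 53.4% and 67.0% of theirs. In all 6 genes each of the 4 arrays from tamoxifen-treated mice lay below each of the 5 arrays without tamoxifen, as in 4.32% of all genes. The averaged contrast called 6 of 6 at an adjusted p under 0.05, where limma called 5.85% of all genes and 2.61% as lower, and the median change was -0.74 against -0.02 over all genes. With 1 array left out 2 to 6 of the 6 were called, the lowest without the first rapamycin plus tamoxifen array, and with median centring or the squamous mean as a covariate 4 were. Against vehicle alone 1 of the 6 was called (background 1.72%, 0.784% lower), and under rapamycin 3 of the 6 (background 2.45%, 1.32% lower). All 6 had an unadjusted limma p under 0.05 in both, as did 2423 of all 22180 genes against vehicle and 3085 under rapamycin.

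**Figure D2:**
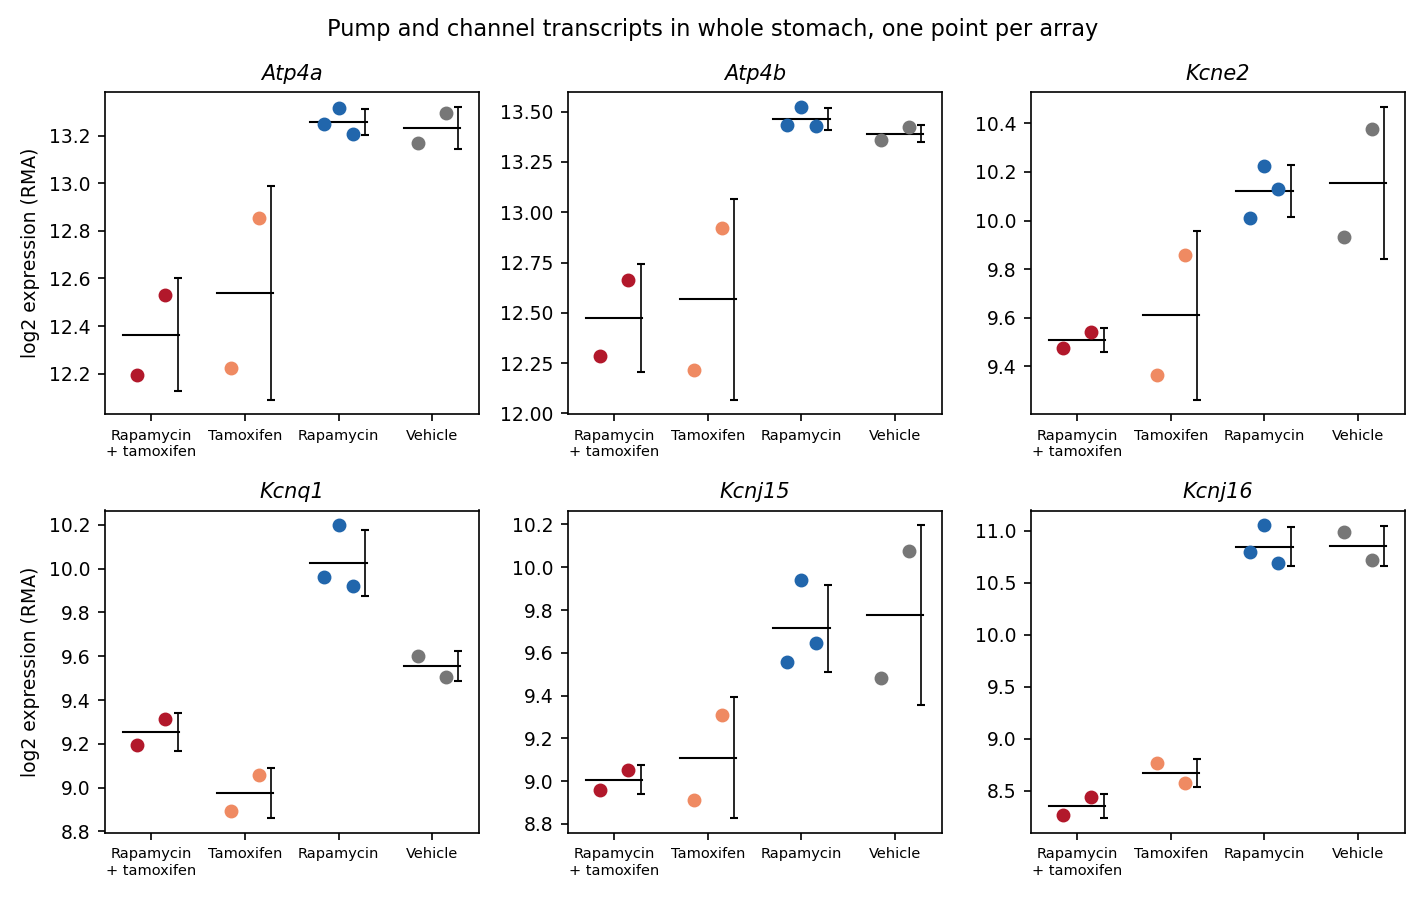
RMA log2 expression (y axis, a separate scale per gene) of the 6 genes in whole stomach by treatment group (x axis). Each point is 1 array, horizontal lines are group means and bars are 1 SD. In every panel the 4 points of the rapamycin plus tamoxifen and tamoxifen groups lie below the 5 points of the rapamycin and vehicle groups, with a gap of 1.93 log2 units for Kcnj16 and of 0.08 for Kcne2.

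Both pump subunits fell together. Atp4a read 12.19 and 12.53 after rapamycin plus tamoxifen, 12.22 and 12.86 after tamoxifen, 13.25, 13.32 and 13.21 after rapamycin and 13.17 and 13.30 after vehicle. The 5 arrays without tamoxifen were tightly grouped, while tamoxifen 2 stood above the other 3 arrays with tamoxifen. Averaged over rapamycin, Atp4a fell by 0.79 ± 0.14 on the log2 scale (limma SE, adjusted p = 0.0131), to 57.7% of its level without tamoxifen. The change was -0.89 ± 0.19 under rapamycin (adjusted p = 0.0516) and -0.69 ± 0.21 against vehicle (adjusted p = 0.198).

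For Atp4b, the β subunit that stabilises the pump, the arrays read 12.28 and 12.66 after rapamycin plus tamoxifen, 12.22 and 12.92 after tamoxifen, 13.44, 13.52 and 13.43 after rapamycin, and 13.36 and 13.42 after vehicle. Tamoxifen 2 was the highest of the 4 arrays with tamoxifen for both subunits, and the groups with and without tamoxifen did not overlap. Averaged over rapamycin it fell by 0.91 ± 0.15 (adjusted p = 0.00937), to 53.4%. The change was -0.99 ± 0.21 under rapamycin (adjusted p = 0.0461) and -0.82 ± 0.23 against vehicle (adjusted p = 0.142). The call of Atp4b under rapamycin was kept in 2 of 9 fits with 1 array left out (adjusted p 0.0108 to 0.404) and lost with the squamous mean as a covariate, where the change was -0.89 (adjusted p = 0.0608). Without the first rapamycin plus tamoxifen array neither subunit was called in the averaged contrast (-0.71 and adjusted p = 0.0732 for Atp4a, -0.81 and adjusted p = 0.0561 for Atp4b). Both probe sets lay close to the brightest values of these arrays, whose maxima ran from 13.85 to 13.97, and whether the scale is compressed there was not tested.

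The annotated start of Atp4a lies on the plus strand of chromosome 7, and the window from 250 bases before it to 50 bases after it is chr7:30711959-30712258 (GRCm38.p6, from RefSeq). It is shown 5′ to 3′ because this gene defines the pump, with GATA matches on either strand in capitals.
Atp4a: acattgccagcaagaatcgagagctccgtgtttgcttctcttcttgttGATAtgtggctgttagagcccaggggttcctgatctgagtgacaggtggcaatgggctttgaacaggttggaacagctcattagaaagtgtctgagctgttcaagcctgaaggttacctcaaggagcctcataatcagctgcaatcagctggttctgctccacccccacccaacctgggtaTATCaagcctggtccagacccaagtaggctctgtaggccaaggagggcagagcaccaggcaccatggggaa
GATA, a core bound by GATA factors, begins at position -202 on the gene's strand, and a match on the other strand begins at position -21, where position -1 is the last base before the start and position 1 the first base after it. GATA occurs on either strand in 57.9% of the 32851 windows of this length in the RefSeq table, so its presence does not set this window apart.

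Kcnq1 and Kcne2, the pore and accessory subunits of the main potassium recycling channel, both fell in the averaged contrast. Kcnq1 read 9.19 and 9.31 after rapamycin plus tamoxifen, 8.89 and 9.06 after tamoxifen, 9.96, 10.20 and 9.92 after rapamycin and 9.60 and 9.51 after vehicle. Replicates were close, and the group means kept the order tamoxifen, rapamycin plus tamoxifen, vehicle and rapamycin from low to high with no overlap between neighbours. Averaged over rapamycin, Kcnq1 fell by 0.68 ± 0.10 (adjusted p = 0.00535), to 62.6%, and it was called with any 1 array left out (adjusted p up to 0.0385). It fell by 0.77 ± 0.14 under rapamycin (adjusted p = 0.0235, kept in 4 of 9 fits with 1 array left out), and stood at -0.58 ± 0.15 against vehicle (adjusted p = 0.113).

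Kcne2 read 9.48 and 9.54 after rapamycin plus tamoxifen, 9.37 and 9.86 after tamoxifen, 10.01, 10.23 and 10.13 after rapamycin and 9.93 and 10.38 after vehicle. Tamoxifen 2 came within 0.08 log2 units of vehicle 1, and the rapamycin and vehicle groups overlapped. The averaged change was -0.58 ± 0.14 (adjusted p = 0.0454), to 67.0%, the smallest of the 6. It was -0.61 ± 0.19 under rapamycin (adjusted p = 0.162) and -0.54 ± 0.20 against vehicle (adjusted p = 0.345).

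The inward rectifiers differed from each other. Kcnj15 read 8.96 and 9.05 after rapamycin plus tamoxifen, 8.91 and 9.31 after tamoxifen, 9.56, 9.94 and 9.64 after rapamycin and 9.48 and 10.07 after vehicle. The vehicle arrays lay on either side of all 3 rapamycin arrays, so those groups overlapped. The averaged change of Kcnj15 was -0.69 ± 0.16 (adjusted p = 0.0354), to 62.1%. It was -0.71 ± 0.21 under rapamycin (adjusted p = 0.148) and -0.67 ± 0.23 against vehicle (adjusted p = 0.276). The calls of Kcne2 and Kcnj15 were the least secure of the 6: each was kept in 2 of 9 fits with 1 array left out, those without vehicle 1 and without tamoxifen 2, and reached an adjusted p of 0.171 and 0.145 without the first rapamycin plus tamoxifen array. With the squamous mean as a covariate the averaged change was -0.46 for Kcne2 (adjusted p = 0.146) and -0.60 for Kcnj15 (adjusted p = 0.112). The other 4 genes kept their call in that fit, with -0.68 for Atp4a (adjusted p = 0.0433), -0.78 for Atp4b (adjusted p = 0.0298), -0.67 for Kcnq1 (adjusted p = 0.0208) and -2.41 for Kcnj16 (adjusted p = 1.36e-04).

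Kcnj16 had the largest fall. It read 8.27 and 8.44 after rapamycin plus tamoxifen, 8.76 and 8.58 after tamoxifen, 10.79, 11.05 and 10.69 after rapamycin and 10.99 and 10.72 after vehicle. The 4 arrays with tamoxifen formed a group 1.93 log2 units or more below the other 5. Tamoxifen 1 and 2, whose squamous means were 9.26 and 4.23, were close together in Kcnj16. Averaged over rapamycin it fell by 2.34 ± 0.12 (adjusted p = 4.98e-05), to 19.8%, which placed it 16th lowest of the 22180 genes. It fell by 2.49 ± 0.16 under rapamycin (adjusted p = 4.74e-04) and by 2.18 ± 0.17 against vehicle (adjusted p = 0.00205). In each of these 3 contrasts it was called with any 1 array left out.

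Windows around annotated starts of the inward rectifier genes are shown because they belong to one family and Kcnj16 fell by more, as tested below. Kcnj15 has 1 window, chr16:95257308-95257607 on the plus strand, and Kcnj16 has 4, of which the first, chr11:110967783-110968082 on the plus strand, held the most matches (GRCm38.p6, from RefSeq). Which Kcnj16 start is used in the stomach is not known from these arrays. Capitals mark 3 motifs on either strand: GATA as above, the TATA box core TATAAA, and AAGGTCA, the half-site of oestrogen-related receptors.
Kcnj15: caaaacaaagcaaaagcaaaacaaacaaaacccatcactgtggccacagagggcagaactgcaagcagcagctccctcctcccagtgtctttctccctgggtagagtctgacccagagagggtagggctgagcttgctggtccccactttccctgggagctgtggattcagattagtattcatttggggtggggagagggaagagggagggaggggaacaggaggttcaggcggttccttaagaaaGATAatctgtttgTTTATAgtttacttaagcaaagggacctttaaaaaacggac
Kcnj16: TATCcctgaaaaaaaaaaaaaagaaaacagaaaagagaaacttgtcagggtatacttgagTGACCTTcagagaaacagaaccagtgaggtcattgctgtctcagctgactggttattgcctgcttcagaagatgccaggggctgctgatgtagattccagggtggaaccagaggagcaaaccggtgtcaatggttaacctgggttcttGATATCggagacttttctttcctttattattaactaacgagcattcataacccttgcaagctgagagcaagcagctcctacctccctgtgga
In the Kcnj15 window GATA begins at -4 and the TATA box core lies on the other strand from position 10. In the Kcnj16 window GATA lies on the other strand from -250 and -40 and on the gene's strand from -42, the last 2 sharing bases, and the receptor half-site lies on the other strand from -190. Over 8 windows of 4 of the genes (Atp4a, Kcne2, Kcnj15 and Kcnj16), GATA was in 5, the TATA box core in 2, the receptor half-site in 1 and the E-box CACGTG in 0. The shares of all 32851 windows were 57.9% for GATA, 13.6% for the TATA box core, 4.72% for the receptor half-site and 7.15% for the E-box. Letters that match a motif are a description of the window and not a site of binding.

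**Figure D3:**
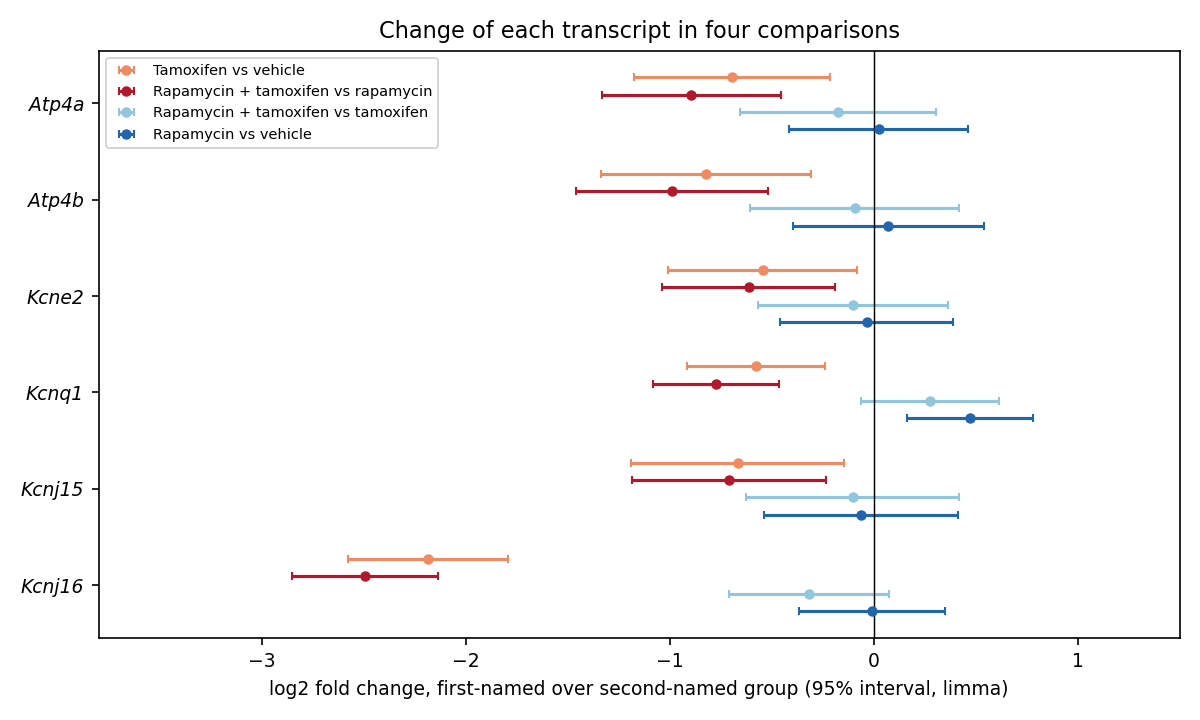
Log2 fold change (x axis, limma estimate with 95% interval) of the 6 genes (y axis) in 4 comparisons, the first-named group over the second. Both tamoxifen comparisons lie below 0 for every gene, from -2.49 to -2.18 for Kcnj16 and from -0.99 to -0.54 for the other 5. Of the rapamycin comparisons, that of Kcnq1 against vehicle (0.47) is the one whose interval excludes 0.

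Whether the 6 transcripts fell by different amounts was tested on the difference between 2 genes within each array, which removes what an array shares across both. Kcnj16 fell by more than each of the other 5. The tamoxifen change of the within-array difference was 1.54 log2 units for Atp4a minus Kcnj16, 1.43 for Atp4b minus Kcnj16, 1.76 for Kcne2 minus Kcnj16, 1.66 for Kcnq1 minus Kcnj16 and 1.65 for Kcnj15 minus Kcnj16. Each had p = 0.0167 in a two-sided exact permutation test over 60 arrangements of the tamoxifen label within rapamycin strata, the smallest p these can give, and an adjusted p = 0.0417 over the 15 pairs. The adjusted value rests on 6 pairs that tie at this smallest p, Atp4a minus Atp4b among them. The difference Atp4a minus Kcnj16, for example, was 3.46 to 4.28 in the 4 arrays with tamoxifen and 2.18 to 2.58 in the 5 without. With any 1 array left out no pair reached an adjusted p under 0.05, since fewer arrangements remain.

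Among the other 5 genes, 1 pair of 10 differed. Atp4a minus Atp4b was -0.13 to 0.01 with tamoxifen and -0.22 to -0.13 without, so the catalytic subunit fell by 0.11 log2 units less than its partner (exact permutation p = 0.0167, adjusted p = 0.0417). The ranges overlap, and both probe sets lie near the brightest values of the arrays, where compression of the scale was not tested. The pore and accessory subunits Kcnq1 and Kcne2 did not differ detectably in their fall (0.10 for Kcne2 minus Kcnq1, exact permutation p = 0.433, adjusted p = 0.5). For Atp4b minus Kcne2 the change was -0.33 (exact permutation p = 0.0333, adjusted p = 0.0714).

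Rapamycin without tamoxifen asks what blocking mTORC1 does to the same genes. No call was made for any of them. Against vehicle limma called 0 of 6 (background 0.0496%, 0.0406% lower). An unadjusted p under 0.05 was found for 1977 of all 22180 genes and for 1 of the 6. That gene was Kcnq1, whose 3 rapamycin arrays (9.96, 10.20 and 9.92) all lay above the vehicle arrays (9.60 and 9.51), a change of 0.47 ± 0.14 (95% interval 0.16 to 0.78, unadjusted p = 0.00739, adjusted p = 0.419). The pump subunits stood at 0.02 for Atp4a (95% interval -0.42 to 0.46) and 0.07 for Atp4b (-0.40 to 0.54). Kcne2 stood at -0.03 (-0.46 to 0.39), Kcnj15 at -0.06 (-0.54 to 0.41) and Kcnj16 at -0.01 (-0.36 to 0.35). Each lower bound lay above the estimate of that gene's own averaged change with tamoxifen. That estimate has an error too. Its 95% interval reached up to -0.26 for Kcne2 and -0.33 for Kcnj15, so for these genes the intervals of both drugs overlapped.

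The groups given both drugs and tamoxifen alone ask what rapamycin changes when tamoxifen is given to both. Rapamycin plus tamoxifen against tamoxifen called 0 of 6 in limma and none at an unadjusted p under 0.05 (background 0.00%, while 1257 genes of the array had one). Kcnq1 stood at 0.28 (95% interval -0.06 to 0.62) and Kcnj16 at -0.32 (-0.71 to 0.08), and the other 4 lay between -0.18 and -0.09. The interaction, which tests whether the tamoxifen change differs with rapamycin, called 0 of 6 in limma, with none at an unadjusted p under 0.05 (background 0.00%, while 627 genes of the array had one). Its estimates ran from -0.31 for Kcnj16 (95% interval -0.84 to 0.22) to -0.04 for Kcnj15 (-0.75 to 0.67). Intervals of this width do not show that the tamoxifen change is alike with and without rapamycin.

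Against vehicle, both drugs together gave a fall of Kcnj16 by 2.50 ± 0.17 (adjusted p = 0.00135), the 1 of 6 that was called (background 1.15%, 0.735% lower). Atp4a stood at -0.87 (adjusted p = 0.117), Atp4b at -0.92 (adjusted p = 0.122), Kcnj15 at -0.77 (adjusted p = 0.188) and Kcne2 at -0.65 (adjusted p = 0.214). Kcnq1 was nearest to vehicle at -0.30 (95% interval -0.64 to 0.04, adjusted p = 0.420). This comparison shares its vehicle arrays with the tamoxifen and rapamycin comparisons above.

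Other genes of acid secretion were read in the averaged tamoxifen contrast, by lists chosen with earlier results of these data known. In that contrast limma called 5.85% of all genes, and 2.61% as lower. Whether any list exceeds that share was not tested. Chloride, bicarbonate and water transport genes fell in 5 of 11 cases and rose in 0 (median -0.85), and with any 1 array left out 4 to 6 were called. Slc26a7, a basolateral chloride-bicarbonate exchanger of the parietal cell, fell by 2.86 ± 0.15 (adjusted p = 6.30e-05). The apical anion transporter gene Slc26a9 fell by 1.20 ± 0.14 (adjusted p = 0.00182), and Slc4a2, the exchanger that disposes of bicarbonate at the basal membrane, by 1.17 ± 0.17 (adjusted p = 0.00412).

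Receptors that switch acid secretion on or off fell in 4 of 6 cases and rose in 0 (median -0.93, background 5.85%, 2.61% lower). Hrh2, the histamine receptor that stimulates the parietal cell, read 6.27 and 6.44 after rapamycin plus tamoxifen, 5.95 and 6.68 after tamoxifen, 7.62, 8.28 and 7.71 after rapamycin, and 7.54 and 7.40 after vehicle. It fell by 1.33 ± 0.19 (adjusted p = 0.00381). The inhibitory somatostatin receptor gene Sstr2 fell by 1.15 ± 0.15 (adjusted p = 0.00306) and the prostaglandin receptor gene Ptger3 by 1.27 ± 0.25 (adjusted p = 0.0202, kept in 5 of 9 fits with 1 array left out). Called receptors numbered 2 without tamoxifen 2, rapamycin 2 or the second rapamycin plus tamoxifen array.

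Genes that move the pump between its vesicles and the apical membrane were mostly not called (background 5.85%, 2.61% lower). Trim50, a tubulovesicle-associated ubiquitin ligase gene, fell by 1.02 ± 0.13 (adjusted p = 0.00243), and the other 10 of 11 measured genes passed in neither direction (list median -0.01). Without vehicle 2 a second gene of this list was called. No sodium pump β subunit or nongastric pump gene was called in limma (0 of 4, median -0.01), the smallest p being that of Atp1b2 (-0.37 ± 0.22, adjusted p = 0.448). Sodium pump α subunits were not analysed here.

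Other potassium channels gave 1 rise and 0 falls among 9 (median -0.04, background 5.85% in either direction). Kcnk1, a two-pore channel gene, rose by 0.74 ± 0.13 (adjusted p = 0.0102), which was lost without the first rapamycin plus tamoxifen array (0.70, adjusted p = 0.0622). Kcnj10, whose product Kir4.1 pairs with Kir5.1, stood at 0.05 ± 0.11 (adjusted p = 0.897), and is named after its value was seen. It read 5.67 to 6.00 over the 9 arrays, close to the array medians of 4.95 to 5.09. Whether so dim a probe set can show a change was not tested. Transcription regulators of the parietal cell gave 0 calls of 7 in limma (median -0.08), the smallest p being that of Esrrb, an oestrogen-related receptor gene (-0.79 ± 0.21, adjusted p = 0.0618). Esrrb was dim as well, at 4.50 to 6.16 in whole stomach. Without vehicle 2 Esrrb was called at -0.98 (adjusted p = 0.0250).

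**Figure D4:**
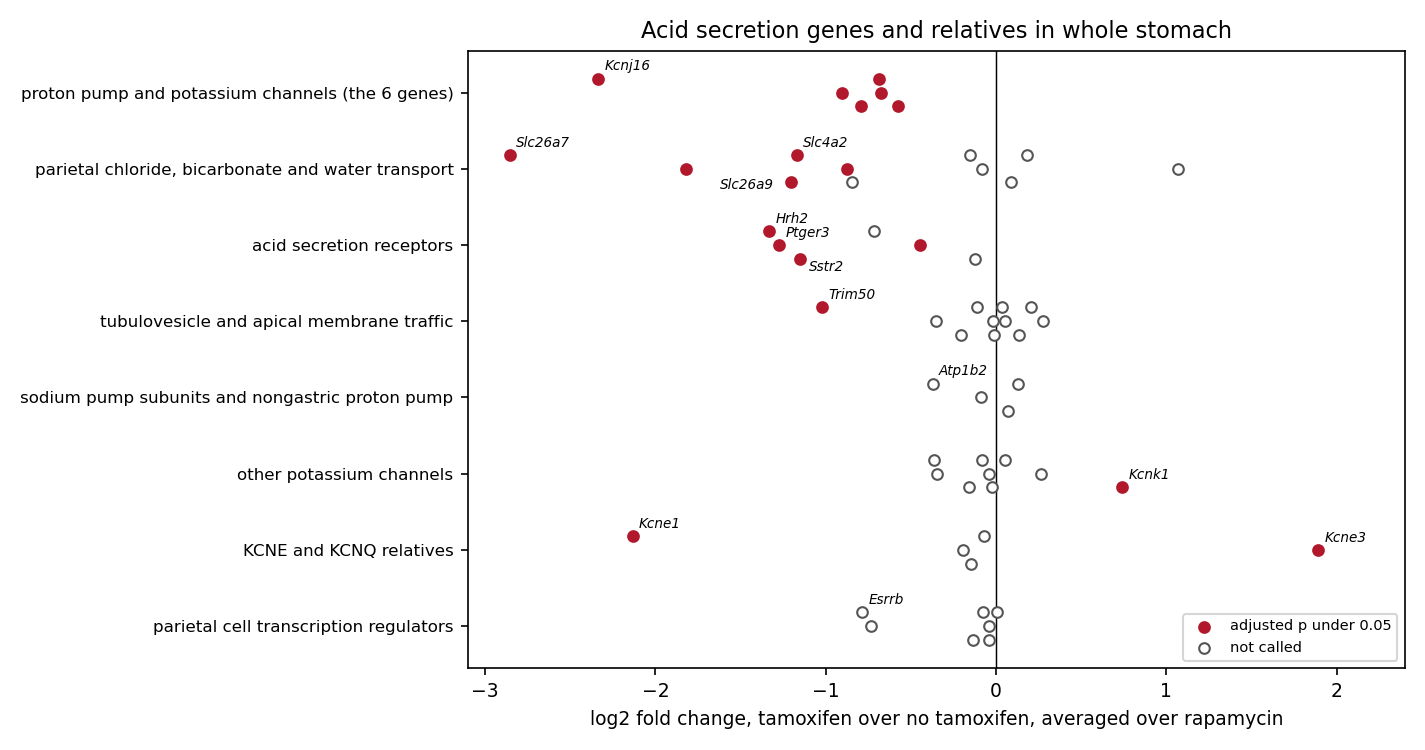
Log2 fold change with tamoxifen, averaged over rapamycin (x axis), of the 6 genes and of 7 lists of related genes (y axis). Each point is a gene, filled where limma gave an adjusted p under 0.05, as for 5.85% of all genes. All 6 pump and channel genes are filled and left of 0, 5 of 11 transporters and 4 of 6 receptors are filled and left of 0, and Kcne3 and Kcnk1 are filled and right of 0.

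Of the relatives of the recycling channel, Kcne1 fell and Kcne3 rose in the averaged contrast, where limma called 5.85% of all genes. The KCNE proteins are small single-pass subunits that set the gating of KCNQ1, and KCNE3 is known for a constitutively open channel with KCNQ1 in intestinal crypts. Kcne1 read 5.63 and 6.18 after rapamycin plus tamoxifen, 5.71 and 6.12 after tamoxifen, 8.56, 8.32 and 8.02 after rapamycin and 8.25 and 7.34 after vehicle. Every array with tamoxifen lay at least 1 log2 unit below every array without it. Kcne1 fell by 2.13 ± 0.22 (adjusted p = 8.85e-04), and its change was -1.88 against vehicle (adjusted p = 0.0282) and -2.39 under rapamycin (adjusted p = 0.00544).

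Kcne3 read 8.75 and 8.02 after rapamycin plus tamoxifen, 8.53 and 8.76 after tamoxifen, 7.54, 6.40 and 6.62 after rapamycin and 6.27 and 6.51 after vehicle. Arrays with tamoxifen were higher without overlap, and rapamycin 1 came closest to them. Kcne3 rose by 1.89 ± 0.25 (adjusted p = 0.00274) and by 2.26 against vehicle (adjusted p = 0.0228), and stood at 1.53 under rapamycin (adjusted p = 0.0522). Of 5 relatives measured, Kcne1 and Kcne3 were the ones called, and both were called in the averaged contrast with any 1 array left out. In the separated cells Kcne1 read 7.48 in parietal cells and 4.67 in the other cells, and Kcne3 read 3.48 in parietal cells and 5.04 in the other cells. Kcne1 thus lay on the parietal side with Kcne2, and Kcne3 on the side of the other cells.

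**Figure D5:**
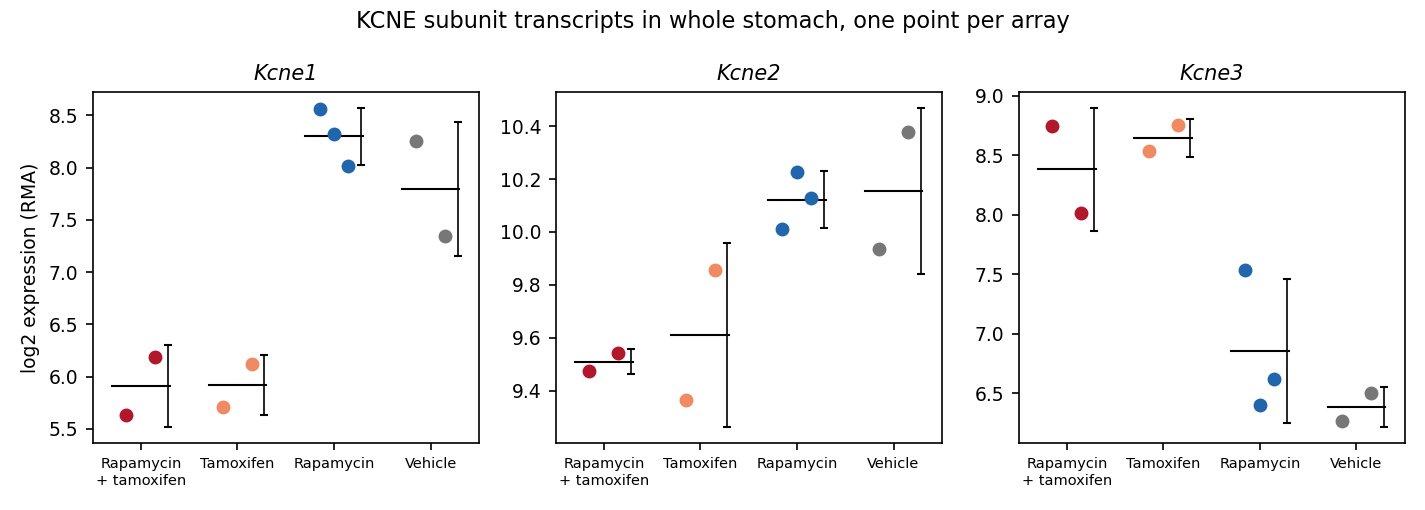
RMA log2 expression (y axis, a separate scale per gene) of Kcne1, Kcne2 and Kcne3 in whole stomach by treatment group (x axis). Each point is 1 array, lines are group means and bars are 1 SD. Tamoxifen-treated arrays are lower for Kcne1 and Kcne2 and higher for Kcne3.

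Markers of the parietal cell other than the 6 genes moved with them in part. The mean of 12 such markers was 8.52 and 8.70 after rapamycin plus tamoxifen, 8.48 and 9.03 after tamoxifen, 9.52, 9.79 and 9.61 after rapamycin and 9.51 and 9.65 after vehicle. Of these markers, all of which except Ckb also stand in the lists above, 6 fell and 0 rose (median -0.89). The other 6 were not called, Car2 and Esrrg among them, and the highest change was 0.09. In the mean of the 12 markers tamoxifen 2 was the highest array with tamoxifen. The same held for the pump subunits, Kcne2 and Kcnj15 but not for Kcnq1 or Kcnj16. Markers of other cell types moved in the same contrast, where limma called 5.85% of all genes and 2.61% as lower. Chief cell markers fell in 4 of 6 cases (median -1.10), with any 1 array left out too. Of smooth muscle markers 1 of 6 fell (median -0.22), and 2 of 6 under rapamycin (median -0.57, background 2.45%, 1.32% lower). Of endothelial markers 1 of 3 fell in the averaged contrast (median -0.46) and of neck mucous markers 1 of 4 (median 0.23). Leukocyte markers rose in 2 of 6 cases (median 0.09), and of 7 endocrine markers 1 rose and 1 fell (median -0.13). With 1 array left out the called smooth muscle and endothelial markers numbered 0 to 1 each, neck and leukocyte markers 0 to 2 each and endocrine markers 1 to 3. In limma 0 of 4 pit mucous, 0 of 6 fibroblast and 0 of 6 glandular epithelium markers were called. Squamous markers stood at a median of 1.67 in the same contrast with 0 of 10 called in limma, and the part of the shifts in these other cell types was not tested, except for the squamous covariate above.

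The genes whose pattern over the 9 whole-stomach arrays was most like each of the 6 were found by the root mean square difference between values centred on each gene's own mean. Atp4a and Atp4b were each other's nearest neighbours of all genes above median expression (0.07 log2 units over 9 arrays). Kcne2 was closest to Cyp2j6 (0.07), Rrm2b (0.08) and Adi1 (0.08). Kcnj15 was closest to Dcbld2 (0.07), Fchsd2 (0.08) and Kcne2 (0.09). Kcnq1, with its higher rapamycin arrays, was closest to Cd59b, Oplah and Bmyc (0.11 each).

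Kcnj16 had no neighbour as near, its closest being Adcyap1r1, the receptor gene for the peptide PACAP (0.23), followed by the lipase gene Lpl and the protease gene Tmprss9 (0.29 each). The measure is not scaled and grows with the size of a gene's change. As Kcnj16 changed most, its larger distances do not show a more isolated pattern. Adcyap1r1 read 5.72 and 5.84 after rapamycin plus tamoxifen, 6.40 and 6.20 after tamoxifen, 7.75, 8.25 and 7.98 after rapamycin and 7.99 and 7.95 after vehicle. After its partner, the nearest to Atp4a were Tc2n and Chchd10 (0.11 each), and to Atp4b Tbc1d9 and Prps2 (0.12 each). The mean pattern of the 6 genes was matched best by Tbc1d9 (0.07), Rap1gap2 (0.09) and Phyh (0.10), which were 2.50, 2.32 and 2.01 log2 units higher in the parietal fraction than in the other cells. Among the genes nearest to single members, that difference ran from 0.08 for Cd59b and 0.13 for Tc2n to 5.28 for Lpl. A pattern like that of a member thus occurred also in genes with little difference between the fractions.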

How the data were processed

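The authors deposited log2 expression values, made with RMA and Partek per the submitters' processing notes; their versions and settings and the array's genome build are not given in those sources. The table held 41345 probe sets on 11 arrays. GEO's probe annotation named 1 symbol for 23521 probe sets, several for 1814 and none for 16010; by gene ID 23328 were matched to RefSeq of assembly GRCm38.p6, which changed 0 symbols. Each gene kept its brightest probe set, by the mean of the 9 whole-stomach arrays, which gave 22180 genes.

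limma 3.58.1 (R 4.3.3) was run on the 9 arrays with 1 mean per group, 1 shared spread (5 residual degrees of freedom) and Benjamini-Hochberg adjustment over all genes; a gene was called at an adjusted p under 0.05. The fit and the permutation test were tested on simulated data. Errors after ± are limma standard errors. Fractions, 1 array each, had no test. Precision is limited by how few arrays there are. The limma p-values rest on the spread between these arrays, moderated over all genes (3.86 prior degrees of freedom).

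All 6 genes are named in every comparison; from each related list up to 3 called genes of smallest adjusted p are named, or the gene of smallest p where none was called, and the 3 most similar genes. The members and lists were chosen with earlier results of these data known. Alternatives were normalization, median centring, a filter at the 25th percentile of mean level, the handling of probe sets, the samples in the fit, the variance model, a squamous covariate, a replicate block and leaving out each array.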

Additional observations from a re-analysis of the deposited data

How the results depend on the processing

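Across the alternatives that kept all arrays, 362 values of single members kept their direction and call, 9 lost a call, 6 gained one and 7 changed sign. In the averaged tamoxifen contrast 6 of the 6 genes were called, and 4 with median centring (Kcne2 at adjusted p = 0.0678 and Kcnj15 at 0.0514 lost theirs) or the squamous covariate. For rapamycin plus tamoxifen against rapamycin, 3 were called, 6 when only the groups compared were fitted and 1 with the replicate block, and all genes called were 543, 1102 and 260 in the same order. For tamoxifen against vehicle, 1 was called and 0 with only the groups compared (Kcnj16 at adjusted p = 0.108), where limma called 0 of all genes, against 381, 193 with the squamous covariate and 170 with the replicate block. All genes called for rapamycin against vehicle were 11, 7 with only the groups compared and 4 with the covariate. For both drugs against vehicle they were 254, 10 with the covariate and 149 with the block, and for the interaction 0 and 1 with the block. Signs turned for rapamycin against vehicle in Kcnj16 (0.033 with quantile normalization, 0.070 with the block), Atp4a (-0.034 with median centring), Kcne2 (0.16) and Kcnj15 (0.077), both with the covariate, and for both drugs against tamoxifen in Atp4b (0.051) and Kcne2 (0.028) with the covariate. The cause was not tested. Same-numbered arrays deviated with correlations of -0.11 to 0.56 over 12 pairs. The highest were between vehicle and tamoxifen arrays (0.56) and between tamoxifen 1 and rapamycin 1 (0.41). Deviations mirror each other in groups of 2 arrays, so these values do not settle whether the numbers pair the samples. Vehicle 2 and tamoxifen 2 had the lowest whole-stomach medians (4.98 and 4.95). They also shared values such as 5.84 for Atp1b2 and 5.67 for Kcnj10, and what links them was not tested. The crossed pairing of tamoxifen and rapamycin plus tamoxifen arrays, chosen after seeing the data, called 0 members and 0 genes in limma.

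With 1 array left out, the members called were 1 to 2 for tamoxifen against vehicle (2 without tamoxifen 2), 1 to 4 for rapamycin plus tamoxifen against rapamycin, 2 to 6 averaged (2 without the first rapamycin plus tamoxifen array), 1 to 3 for both drugs against vehicle (3 without either tamoxifen array) and 0 to 0 for the other contrasts and the differences between members. All genes called were 95 to 213, 39 to 643, 613 to 1452 and 17 to 376 in the order of those 4 contrasts, 3 to 20 for rapamycin against vehicle, 0 to 1 for both drugs against tamoxifen and 0 to 0 for the interaction. Values that changed sign ranged, for rapamycin against vehicle, from -0.039 to 0.086 (Atp4a), -0.26 to 0.19 (Kcne2), -0.36 to 0.23 (Kcnj15) and -0.14 to 0.13 (Kcnj16); for both drugs against tamoxifen from -0.49 to 0.14 (Atp4a), -0.45 to 0.26 (Atp4b), -0.35 to 0.14 (Kcne2) and -0.30 to 0.096 (Kcnj15); for the interaction from -0.52 to 0.12 (Atp4a), -0.52 to 0.19 (Atp4b), -0.31 to 0.18 (Kcne2) and -0.34 to 0.26 (Kcnj15). The differences Atp4a minus Kcnj15 (-0.22 to 0.011), Kcne2 minus Kcnq1 (-0.038 to 0.23) and Kcnq1 minus Kcnj15 (-0.16 to 0.18) also turned.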

Other observations

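Kcnq1ot1, the noncoding transcript that runs antisense within the Kcnq1 locus, had its own probe set. It read 5.92 and 5.67 after rapamycin plus tamoxifen, 5.68 and 5.56 after tamoxifen, 5.48, 5.21 and 5.70 after rapamycin and 5.56 and 5.97 after vehicle. The 4 groups overlapped, unlike those of Kcnq1. In the separated cells it read 5.06 in parietal cells and 6.24 in the other cells, while Kcnq1 was higher in parietal cells. It was named after its values were seen, and the labels do not state how the probes treat strand.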
